A study of Mus musculus with 46 samples.

Results

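The Ifi200 (HIN-200) genes and Aim2 form one cluster on mouse chromosome 1, and 6 of them are described here: Ifi203, Ifi204, Ifi206, Ifi207, Ifi211 and Aim2. They were chosen by symbol out of 53465 genes in the count table, with their levels by genotype in these libraries already known. The values by genotype that selected them are therefore given as a description, without p-values. Tests are given for the tissues of p150-positive animals, for the other 8 family genes in the table and for pathway genes that are not members. These lists and tests were also chosen with earlier results of these data known. The pathway genes named are mainly those with the smallest adjusted p. Some other family genes share transcript sequence with members, so their counts are not fully separate from the members' counts. All mice were C57BL/6 at postnatal day 23, and liver, kidney and cerebellum were sampled. Both groups carried P195A, a substitution in the Z-nucleic-acid-binding domain of the RNA-editing enzyme ADAR1. In the 8 P195A/p150- mice (p150-negative) the other Adar allele gave no p150, the interferon-inducible isoform that holds this domain. The 8 P195A/p150+ mice (p150-positive) kept p150 from the other allele. Both groups thus had the substitution, and no mouse without P195A was analysed here.

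HIN-200 proteins bind double-stranded DNA through HIN domains, and many also carry a pyrin domain through which they join other proteins. AIM2 senses DNA in the cytosol and assembles an inflammasome with the adaptor ASC and caspase-1. The p204 protein of Ifi204 is a mouse relative of human IFI16 and has been placed upstream of STING in the response to DNA. Genes of this family are induced by interferons and are expressed in macrophages and other leukocytes.

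Of 46 libraries, 41 were used. The p150-negative animals gave 7 livers, 5 kidneys and 8 cerebella, and the p150-positive animals gave 7 of each. The other 5 held RNA of another organ than their label, with identity genes of the label at no more than 0.827% of the median of that label, and were left out. In the 41, these genes reached at least 59.8% of it. Their depth was 0.27 to 6.24 M (1000000 counts) and 2.95 M at the median. Levels are given in CPM (counts per 1000000 counts of a library) as mean ± SD over animals, beside the summed counts. Adar was not called between genotypes in any tissue (edgeR quasi-likelihood test, adjusted p = 0.317, 0.973 and 0.723 in liver, kidney and cerebellum). Counts per gene add its isoforms, so Adar does not check the genotype. The p150-negative cerebellum of animal 2 stood apart: its summed CPM of 30 interferon target genes was 182, within the 151 to 367 of p150-positive cerebella, against 1990 to 3630 in the other p150-negative cerebella. The libraries of animal 2 labelled liver and kidney, both left out, held 628 and 702 CPM of these genes. The p150-negative livers and kidneys used held at least 1160 and 3070 CPM, in a comparison of organs that may differ. Values without the cerebellum of animal 2 are given where results rest on it.

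On GRCm38 the cluster spans 680.9 kb of chromosome 1, from Aim2 to Ifi205. Aim2 (ENSMUSG00000037860) lies at 173350879 to 173466040 on the plus strand. The other members lie on the minus strand: Ifi206 (ENSMUSG00000037849) at 173468485 to 173491041, Ifi207 (ENSMUSG00000073490) at 173723427 to 173741747, Ifi204 (ENSMUSG00000073489) at 173747293 to 173766943, Ifi211 (ENSMUSG00000026536) at 173896345 to 173913046 and Ifi203 (ENSMUSG00000039997) at 173920407 to 173942672. Counts of single members are uncertain to different degrees because the genes resemble each other. Of all 50-base windows in the longest transcript, 72.9% of those of Ifi211 also stand in transcripts of another gene. The share was 30.2% for Ifi204, 24.5% for Ifi206, 10.7% for Ifi203, 7.2% for Ifi207 and 0.8% for Aim2. Mndal, another family gene, spans Ifi211 and most of Ifi203 and shares 37 exon bases with Ifi203. The span of Aim2 overlaps Cadm3 on the other strand, but Aim2 shares 0 exon bases with other genes. The strand setting of the counting is not given in the sources used here.

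The starts of the members except Ifi204 were searched for 2 motifs named after interferon signalling, on both strands. The window ran from 250 bases before to 50 after each RefSeq start (GRCm38.p6), and Ifi204 had no promoter entry. The first was the core of the interferon-stimulated response element, GAAANNGAAA, which 3.44% of 32851 promoters of the same length hold. Counted by gene, with any start, the share was 3.99%. The core stood in 4 of the 5 members with a promoter entry, within 41 bases before the start in each, and in 5 of 7 other family genes. The second, the GAS element TTCNNNGAA, is held by 8.3% of promoters and 9.55% of genes. It stood in 0 members and in Ifi202b alone of the others. The 100 bases before the start are shown for the 4 members with the core, and for Ifi208, a family gene that is not a member, because its stretch nearly repeats that of Ifi206. Capitals mark the core. The stretches are chr1:173942493-173942592, chr1:173491319-173491418, chr1:173741810-173741909 and chr1:173913047-173913146 on the minus strand for the members in the order shown, and chr1:173673565-173673664 on the plus strand for Ifi208.
Ifi203: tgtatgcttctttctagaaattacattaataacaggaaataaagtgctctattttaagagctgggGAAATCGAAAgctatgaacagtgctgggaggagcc
Ifi206: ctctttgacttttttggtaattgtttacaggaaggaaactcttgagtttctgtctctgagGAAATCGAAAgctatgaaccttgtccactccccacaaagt
Ifi207: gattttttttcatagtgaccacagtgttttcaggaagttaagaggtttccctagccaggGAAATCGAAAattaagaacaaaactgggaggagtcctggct
Ifi211: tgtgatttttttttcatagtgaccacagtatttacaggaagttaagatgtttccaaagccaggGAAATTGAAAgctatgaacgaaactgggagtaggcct
Ifi208: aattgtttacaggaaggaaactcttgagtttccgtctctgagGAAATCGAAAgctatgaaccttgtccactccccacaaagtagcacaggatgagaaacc

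Ifi203, Ifi206, Ifi207 and Ifi208 had GAAATCGAAA, and Ifi211 had GAAATTGAAA. Lined up on the core, Ifi206 and Ifi208 were equal at 81 of 82 bases. Ifi207 and Ifi211 were equal at 82 of 96 bases, and Ifi206 and Ifi207 at 41 of 99. The stretch of Ifi203 was equal at 98 of 99 bases to that before a start of Mndal. Ifi203 has a second listed start without the core, and Aim2 held neither motif. A match describes these letters in this window and not a bound site.

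Ifi204 was the one member whose p150-negative libraries lay above every p150-positive library in all 3 tissues. In liver it ran from 28.2 to 90.0 CPM with a median of 32.9 in p150-negative animals and from 11.3 to 20.8 CPM with a median of 16.1 in p150-positive animals. Means were 45.2 ± 23.1 CPM (SD, n = 7; 860 counts) and 16.2 ± 3.56 CPM (n = 7; 344 counts), and the log2 fold change was 1.49 ± 0.25 (SE). The livers of animals 14 and 8 were highest, at 90.0 and 63.0 CPM.

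In kidney, Ifi204 stood at 28.0, 70.6, 64.4, 30.3 and 63.1 CPM in p150-negative animals 1, 3, 8, 9 and 16. The p150-positive kidneys ran from 0.77 to 27.2 CPM with a median of 6.73. The means of 51.3 ± 20.4 CPM (SD, n = 5; 523 counts) and 8.29 ± 9.02 CPM (n = 7; 166 counts) differed by 2.49 ± 0.58 on the log2 scale. The groups nearly touched, because the p150-positive kidney of animal 15 reached 27.2 CPM. Without it the p150-positive mean was 5.13 ± 3.74 CPM (SD, n = 6).

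In cerebellum, Ifi204 ran from 1.83 to 27.5 CPM with a median of 18.6 in p150-negative animals, 483 counts in all. The 7 p150-positive cerebella had 8 counts together, 4 of them none, and the highest was 1.04 CPM. The log2 fold change was 5.60 ± 0.75. The ratio of summed counts per depth was 55.7, with an exact 95% interval of 28.0 to 130.0 that covers counting error only. A library with 0 counts there allows up to 0.481 to 1.04 CPM, which is what 3 counts give. The lowest p150-negative value was that of animal 2, and without it the others began at 12.9 CPM and averaged 19.6 ± 5.27 CPM (SD, n = 7).

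**Figure D1:**
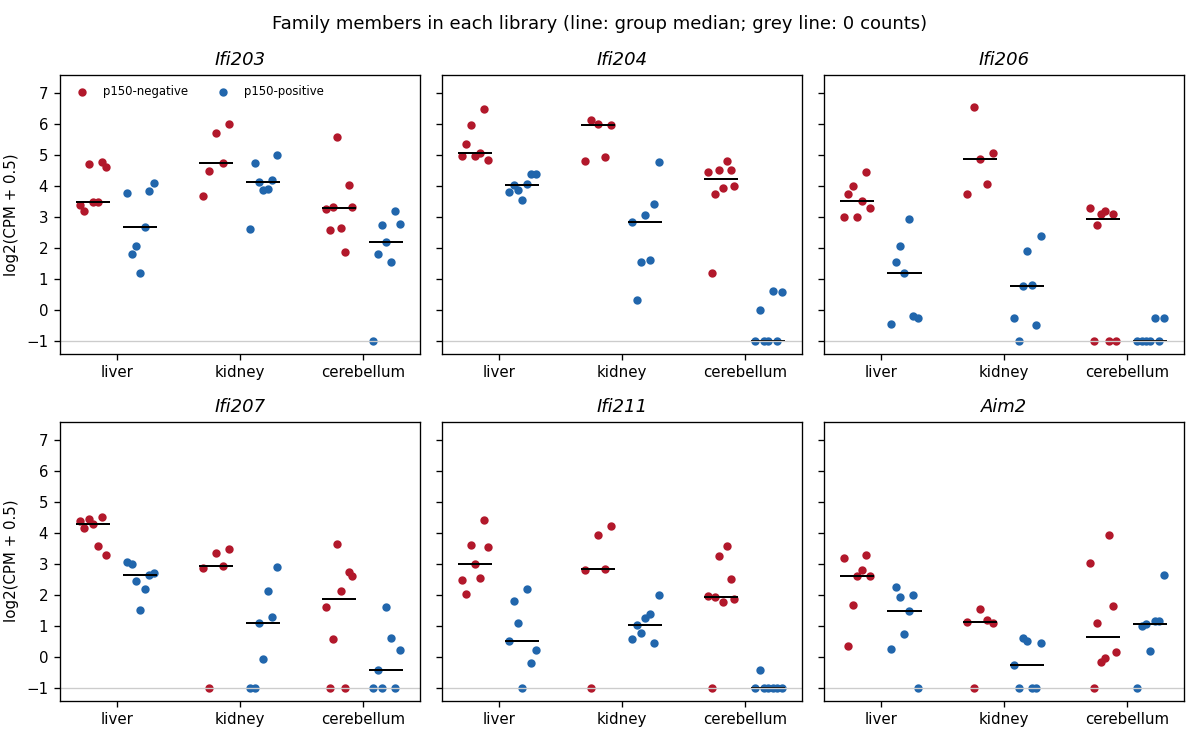
Level of each member in every library, as log2(CPM + 0.5) on the vertical axis, by tissue and genotype on the horizontal axis; each point is 1 animal, black lines are group medians and the grey line is 0 counts. Ifi204 separates the genotypes in each tissue, while the Aim2 groups overlap in each. In kidney the Aim2 overlap comes only from the 0 of p150-negative animal 3, a library too shallow to place the gene.

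Ifi203, which encodes the nuclear HIN-200 protein p203, was detected in every p150-positive liver and kidney and in 6 of 7 p150-positive cerebella, and its genotype groups overlapped in every tissue. In liver it ran from 8.72 to 27.2 CPM with a median of 10.8 in p150-negative animals, and from 1.78 to 16.6 CPM with a median of 5.95 in p150-positive animals. Means were 16.8 ± 8.44 CPM (SD, n = 7; 286 counts) and 8.33 ± 6.07 CPM (n = 7; 187 counts), and the log2 fold change was 0.96 ± 0.44. Of the p150-negative livers, 3 of 7 lay above the highest p150-positive one.

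In kidney, Ifi203 was at 12.3, 22.3, 51.8, 26.7 and 64.3 CPM in p150-negative animals 1, 3, 8, 9 and 16, and between 5.72 and 32.1 CPM with a median of 17.2 in p150-positive ones. Means were 35.5 ± 21.7 CPM (SD, n = 5; 414 counts) and 18.3 ± 8.59 CPM (n = 7; 356 counts), with a log2 fold change of 0.89 ± 0.45. Only animals 8 and 16 stood above all p150-positive kidneys. In cerebellum, Ifi203 ran from 3.18 to 47.4 CPM with a median of 9.38 in p150-negative animals (468 counts) and from 0 to 8.82 CPM with a median of 4.16 in p150-positive ones (129 counts). The log2 fold change was 1.57 ± 0.64. The cerebellum of animal 8 gave 244 of the 468 counts.

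Ifi206, a less studied member of the family, had 2 counts in all p150-positive cerebella together. In liver the groups did not overlap: p150-negative animals ran from 7.6 to 21.6 CPM with a median of 11.1, and p150-positive animals from 0.232 to 7.24 CPM with a median of 1.78. Means were 12.3 ± 5.06 CPM (SD, n = 7; 227 counts) and 2.31 ± 2.54 CPM (n = 7; 51 counts), a log2 fold change of 2.41 ± 0.53. The p150-positive liver nearest to the p150-negative ones was that of animal 12, which held 28 of the 51 counts.

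In kidney, Ifi206 stood at 12.9, 92.9, 28.7, 16.5 and 33.2 CPM in p150-negative animals 1, 3, 8, 9 and 16 and between 0 and 4.83 CPM with a median of 1.23 in p150-positive ones. The log2 fold change was 4.27 ± 0.71, from 270 and 29 counts. The 92.9 CPM of animal 3 were 25 counts in the shallowest library. Without it the p150-negative mean was 22.8 ± 9.69 CPM (SD, n = 4) in place of 36.8 ± 32.4 CPM (n = 5), against 1.6 ± 1.81 CPM (n = 7) in p150-positive kidneys.

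In cerebellum, Ifi206 was split among p150-negative animals: 5 stood between 6.28 and 9.39 CPM, and animals 2, 11 and 16 had 0 counts. The p150-positive cerebella ran from 0 to 0.345 CPM. From 154 and 2 counts, the ratio per depth was 71.0 (exact 95% interval 19.3 to 592, counting error only).

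Ifi207, a member with a pyrin and a HIN domain, had its highest group means in liver. There p150-negative animals ran from 9.39 to 22.4 CPM with a median of 19.3, and p150-positive animals from 2.38 to 7.9 CPM with a median of 5.79, with no overlap. Means were 17.4 ± 5.06 CPM (SD, n = 7; 313 counts) and 5.56 ± 1.94 CPM (n = 7; 124 counts), a log2 fold change of 1.68 ± 0.27. In kidney, Ifi207 was at 6.86, 0, 9.8, 7.13 and 10.7 CPM in p150-negative animals 1, 3, 8, 9 and 16 and ran from 0 to 7.03 CPM with a median of 1.64 in p150-positive ones (94 and 43 counts). The 0 of animal 3 came at a depth where 3 counts are 11.1 CPM, above every other kidney value of the gene, so this library does not place it. The kidney log2 fold change was 1.75 ± 0.74.

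In cerebellum, Ifi207 ran from 0 to 12.1 CPM with a median of 3.21 in p150-negative animals and from 0 to 2.56 CPM with a median of 0.25 in p150-positive ones. The totals were 136 and 14 counts, a ratio per depth of 8.96 (exact 95% interval 5.16 to 16.8, counting error only). Animals 2 and 11 had no count among the p150-negative cerebella, and the groups overlapped.

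Ifi211, whose reads are the least certain by the window count, resembled Ifi204 most across libraries. In liver it ran from 3.57 to 21.1 CPM with a median of 7.62 in p150-negative animals and from 0 to 4.14 CPM with a median of 0.929 in p150-positive animals. Means were 9.38 ± 6.03 CPM (SD, n = 7; 171 counts) and 1.55 ± 1.52 CPM (n = 7; 37 counts), a log2 fold change of 2.49 ± 0.53. In 48 of 49 pairs of 1 liver per genotype the p150-negative one was higher.

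In kidney, Ifi211 was at 6.57, 0, 14.7, 6.68 and 18.4 CPM in p150-negative animals 1, 3, 8, 9 and 16, against 0.857 to 3.51 CPM with a median of 1.54 in p150-positive ones (125 and 32 counts). Apart from animal 3, the p150-negative kidneys stood above all p150-positive ones. In cerebellum the p150-negative animals ran from 0 to 11.6 CPM with a median of 3.36 and had 125 counts, while the 7 p150-positive cerebella had 1. The ratio per depth was 115 (exact 95% interval 20.3 to 4590, counting error only). The 7 p150-negative cerebella other than that of animal 2, which had no count, lay above the single p150-positive count.

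Aim2, the inflammasome sensor, was the member with the fewest counts in kidney and passed the expression filter in no tissue. In liver it ran from 0.793 to 9.24 CPM with a median of 5.64 in p150-negative animals and from 0 to 4.26 CPM with a median of 2.33 in p150-positive ones. Means were 5.6 ± 3.02 CPM (SD, n = 7; 95 counts) and 2.18 ± 1.6 CPM (n = 7; 45 counts), and 5 of 7 p150-negative livers lay above all p150-positive ones. In kidney, Aim2 was at 1.71, 0, 2.45, 1.78 and 1.64 CPM in p150-negative animals 1, 3, 8, 9 and 16 and at 0 to 1.03 CPM in p150-positive ones, from 21 and 10 counts. At the depth of animal 3, 3 counts are 11.1 CPM, so its 0 does not place the gene. The other 4 p150-negative kidneys lay above every p150-positive one.

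In cerebellum the genotypes were not separated for Aim2. Values ran from 0 to 14.8 CPM with a median of 1.14 in p150-negative animals (71 counts) and from 0 to 5.74 CPM with a median of 1.62 in p150-positive animals (47 counts), and the ratio per depth of 1.39 had an interval of 0.95 to 2.06. Animals 11 and 1, at 14.8 and 7.69 CPM, stood above all p150-positive cerebella. This differs from Ifi204, Ifi206 and Ifi211, which were near 0 in p150-positive cerebella.

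Of the members tested, edgeR's quasi-likelihood test called 4 of 5 higher in p150-negative liver (Ifi204, Ifi206, Ifi207, Ifi211), 1 of 4 in kidney (Ifi206) and 2 of 3 in cerebellum (Ifi204, Ifi211) at an adjusted p under 0.05 over all genes. Members lower in p150-negative animals numbered 0. Of all genes tested, 6.94% were called higher and 4.76% lower in liver, 0.385% and 0.309% in kidney, and 0.723% and 0.274% in cerebellum. Every p150-negative library lay above every p150-positive one for 3 members in liver (2.45% of all genes tested), 2 in kidney (0.828%) and 1 in cerebellum (0.228%). Since these contrasts were known when the members were chosen, nothing is read from the counts. Members missing from a test had too few counts: Aim2 in all tissues, Ifi211 in kidney, and Ifi206 and Ifi207 in cerebellum. Members that passed did so partly through their p150-negative libraries.

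On the log2 scale, the genotype difference was larger in cerebellum than in liver for Ifi204, Ifi211 and Ifi206. In CPM the gap between the means was wider in liver for all 3. The liver means were 45.2 and 16.2, 9.38 and 1.55, and 12.3 and 2.31 CPM. The cerebellum means were 17.4 and 0.364, 4.85 and 0.0357, and 5.08 and 0.0976 CPM. The p150-positive cerebella held only 8, 1 and 2 counts of these genes. In 1 fit over the 3 tissues, the liver minus cerebellum difference of their log2 fold changes was -4.04 ± 0.78 (SE), -3.24 ± 1.02 and -3.0 ± 1.23. The kidney minus cerebellum difference was -3.04 ± 0.82 for Ifi204, -3.29 ± 1.06 for Ifi211 and -1.09 ± 1.06 for Ifi206. For Ifi203 the liver minus cerebellum difference was -0.55 ± 0.74 and for Ifi207 -0.98 ± 0.94, both near or below the size of their SE. In p150-negative animals the mean of Ifi204 was 51.3 CPM in kidney and 17.4 CPM in cerebellum. In p150-positive animals it was 8.29 CPM in kidney, or 5.13 CPM without animal 15, and 0.364 CPM in cerebellum, from 8 counts.

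Summed over the 6 members, p150-negative livers held 78.1 to 192 CPM and p150-positive livers 18.4 to 44.8 CPM. Kidneys held 68.3 to 191 CPM and 14.1 to 75.5 CPM, where animal 15 alone among the p150-positive ones exceeded 31.3 CPM. Cerebella held 7.32 to 99.5 CPM and 0 to 14.2 CPM. Animal 2 was the p150-negative cerebellum at 7.32 CPM, and the others began at 34.6 CPM. In the p150-positive cerebellum of animal 4 all 6 members had 0 counts. Animal numbers come in 4 sets by the first part of their identifier, whose meaning the labels do not state. Within each set that had both genotypes, the p150-negative mean of the sum was higher in 4 of 4 sets for liver, 3 of 3 for kidney and 4 of 4 for cerebellum. In the sets AA and AS this compares 1 animal of each genotype.

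**Figure D2:**
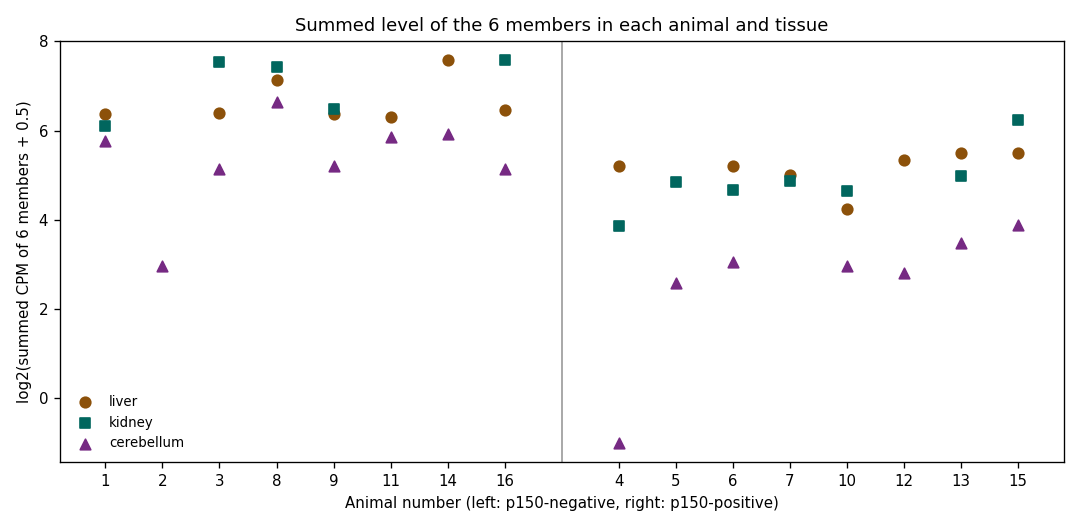
Summed CPM of the 6 members, as log2(CPM + 0.5) on the vertical axis, for each animal on the horizontal axis, with 1 symbol per tissue. The p150-negative cerebellum of animal 2 (7.32 CPM) lies among the p150-positive cerebella (0 to 14.2 CPM), and animal 4 had none.

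The make-up of the family also differed, compared per kilobase of exon. In p150-positive cerebella, Ifi203 made up 43.1% of the members' summed CPM per kb and Aim2 34.6%, while Ifi204 made up 6.66% and Ifi211 1.3%. In p150-negative cerebella, Ifi204 led at 36.5%, followed by Ifi211 at 20.3%, and Ifi203 and Aim2 made up 14.8% and 7.53%. In kidney, Ifi206 stood at 30.6% in p150-negative and 7.16% in p150-positive animals, and Ifi203 at 13.4% and 37.3%. In liver, Ifi204 led in both genotypes, at 40.7% and 47.1%. The Ifi206 share in p150-negative kidney rests in part on the shallow library of animal 3. These shares are of group means and carry the uncertainty of reads shared between the genes.

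**Figure D3:**
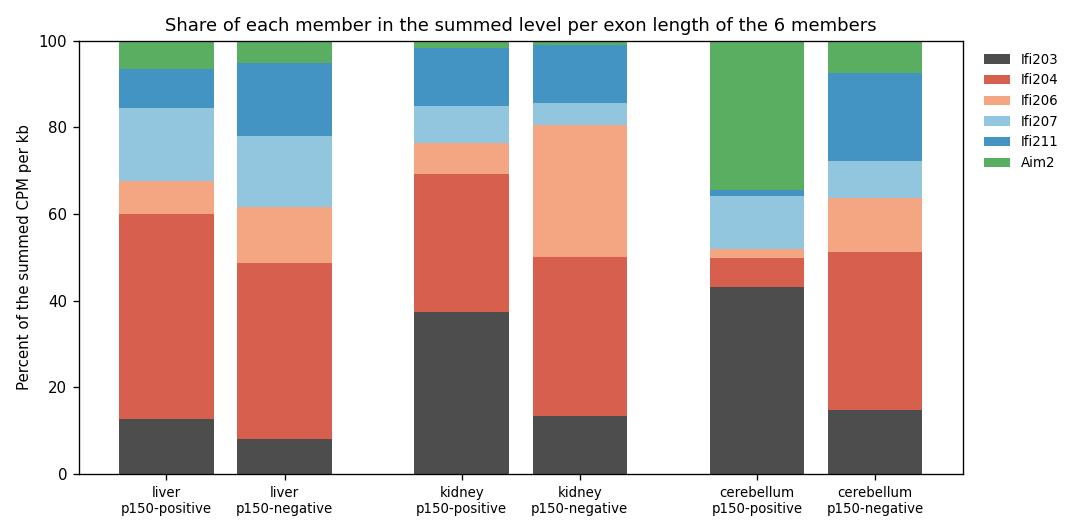
Share of each member in the summed CPM per kb of exon of the 6 members, in percent on the vertical axis, for the group means of each tissue and genotype on the horizontal axis. Ifi203 and Aim2 hold 43.1% and 34.6% in p150-positive cerebella, and Ifi204 leads in the p150-negative groups.

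Levels across tissues were tested in p150-positive animals alone, so that the contrast behind the choice of members did not enter. By the fold changes below, Ifi204 was highest in liver, then kidney, then cerebellum, but its liver and kidney values overlapped. Ifi203 was lowest in cerebellum, and its liver and kidney levels did not differ beyond their spread. Only Ifi203, Ifi204 and Ifi207 passed the expression filter. Liver exceeded cerebellum for Ifi204 (log2 fold change 6.30 ± 0.73, SE; edgeR adjusted p = 3.2e-08; higher than every cerebellum in 7 of 7 livers), Ifi207 (3.94 ± 0.80; adjusted p = 1.1e-04; 6 of 7) and Ifi203 (1.68 ± 0.56; adjusted p = 0.00988; 3 of 7). Of all genes tested, 28.8% were called higher in liver than in cerebellum.

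Kidney exceeded cerebellum for Ifi204 (4.49 ± 0.72; edgeR adjusted p = 7.32e-06) and Ifi203 (1.94 ± 0.55; adjusted p = 0.00372), and Ifi207 was not called (1.74 ± 0.82; adjusted p = 0.0663). The background for this contrast was 27.0%. Liver exceeded kidney for Ifi204 (1.81 ± 0.54; edgeR adjusted p = 0.00714) and Ifi207 (2.20 ± 0.72; adjusted p = 0.0133), against 21.6% of all genes, and Ifi203 was not called (-0.27 ± 0.53; adjusted p = 0.72). For Ifi204, 0 of 7 livers lay above the highest kidney, since livers reached 20.8 CPM and the kidney of animal 15 27.2 CPM. For Ifi207, 2 of 7 livers did. The fold changes of these contrasts use TMM scaling. On plain CPM the median of all genes tested was -0.85 for liver over kidney and -1.0 for liver over cerebellum, against -0.04 and -0.3 with TMM. The CPM ratios were accordingly lower: 0.97 for Ifi204 and -1.13 for Ifi203 in liver over kidney, on the log2 scale. None of the 3 changed direction between the scalings in any of these contrasts.

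Per kb, the order of the members within p150-positive liver was Ifi204 (4.55 CPM per kb), Ifi207 (1.62), Ifi203 (1.24), Ifi211 (0.868), Ifi206 (0.756) and Aim2 (0.624). In p150-positive kidney it was Ifi203 (2.72), Ifi204 (2.33), Ifi211 (0.973), Ifi207 (0.623), Ifi206 (0.523) and Aim2 (0.13). In p150-positive cerebellum, Ifi203 (0.661) and Aim2 (0.53) came first and Ifi206 (0.032) and Ifi211 (0.02) last. The 7 livers kept Ifi204 above all values of Ifi207, and every other pair of neighbours in these orders overlapped over animals.

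Of the other family genes, 4 of 4 tested in liver were higher in p150-negative animals by edgeR. Ifi208 stood at 18.7 ± 9.77 CPM (SD, n = 7) and 3.61 ± 1.34 CPM (n = 7), and rose by 2.34 ± 0.34 (SE) on the log2 scale (edgeR adjusted p = 8.5e-05). Ifi209 rose by 2.66 ± 0.43 (adjusted p = 2.61e-04), Ifi213 by 2.42 ± 0.40 (adjusted p = 3.19e-04) and Mndal, the myeloid nuclear differentiation antigen-like gene, by 0.98 ± 0.31 (adjusted p = 0.0457). On leaving out each of the 14 livers in turn, the first 3 genes stayed called in each fit and Mndal in 3 (adjusted p from 0.0133 to 0.12). Ifi206, Ifi208 and Ifi213, which have nearly the same stretch before their start and share transcript windows, had 2.41, 2.34 and 2.42 in liver but 4.27, 2.09 and 2.42 in kidney. The kidney SEs were 0.71, 0.7 and 0.7, and the shallow kidney library of p150-negative animal 3 held 25, 0 and 1 counts of these genes. Ifi203 and Mndal, which also share such a stretch, had 0.96 and 0.98 in liver, 0.89 and 0.36 in kidney, and 1.57 and 2.4 in cerebellum. Ifi207 and Ifi211, whose stretches were equal at 82 of 96 bases, had 1.68 and 2.49 in liver, and Ifi209 had 2.66. Whether like stretches go with like values was not tested.

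In kidney, 0 of 4 other family genes were called by edgeR, 3 passed an unadjusted p of 0.05, and 1 was called by DESeq2. Their p150-negative and p150-positive means were 19.1 and 4.51 CPM for Ifi208, 8.67 and 2.97 CPM for Ifi209, 13.0 and 2.39 CPM for Ifi213, and 16.5 and 13.1 CPM for Mndal. In cerebellum, Mndal rose by 2.4 ± 0.55 (edgeR adjusted p = 0.0381), from 2.41 ± 1.05 CPM (SD, n = 7) to 12.9 ± 10.6 CPM (n = 8), a call that held in 5 of 15 fits with 1 cerebellum left out (adjusted p up to 0.107). Ifi209 did not pass (1.70 ± 0.80; adjusted p = 0.515). Ifi208 had 200 counts in p150-negative and 4 in p150-positive cerebella but did not pass the expression filter. Ifi205 passed the filter in no tissue, but in liver every p150-negative animal (3.55 to 16.9 CPM; 143 counts) lay above every p150-positive one (0 to 2.71 CPM; 25 counts). Its ratio per depth there was 7.24 (exact 95% interval 4.71 to 11.6, counting error only). The other 3 were low: Ifi202b, whose product opposes AIM2 in mice, had 1 count in all libraries, and Ifi214 and the pseudogene Ifi203-ps had at most 16 and 40 counts in a group.

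**Figure D4:**
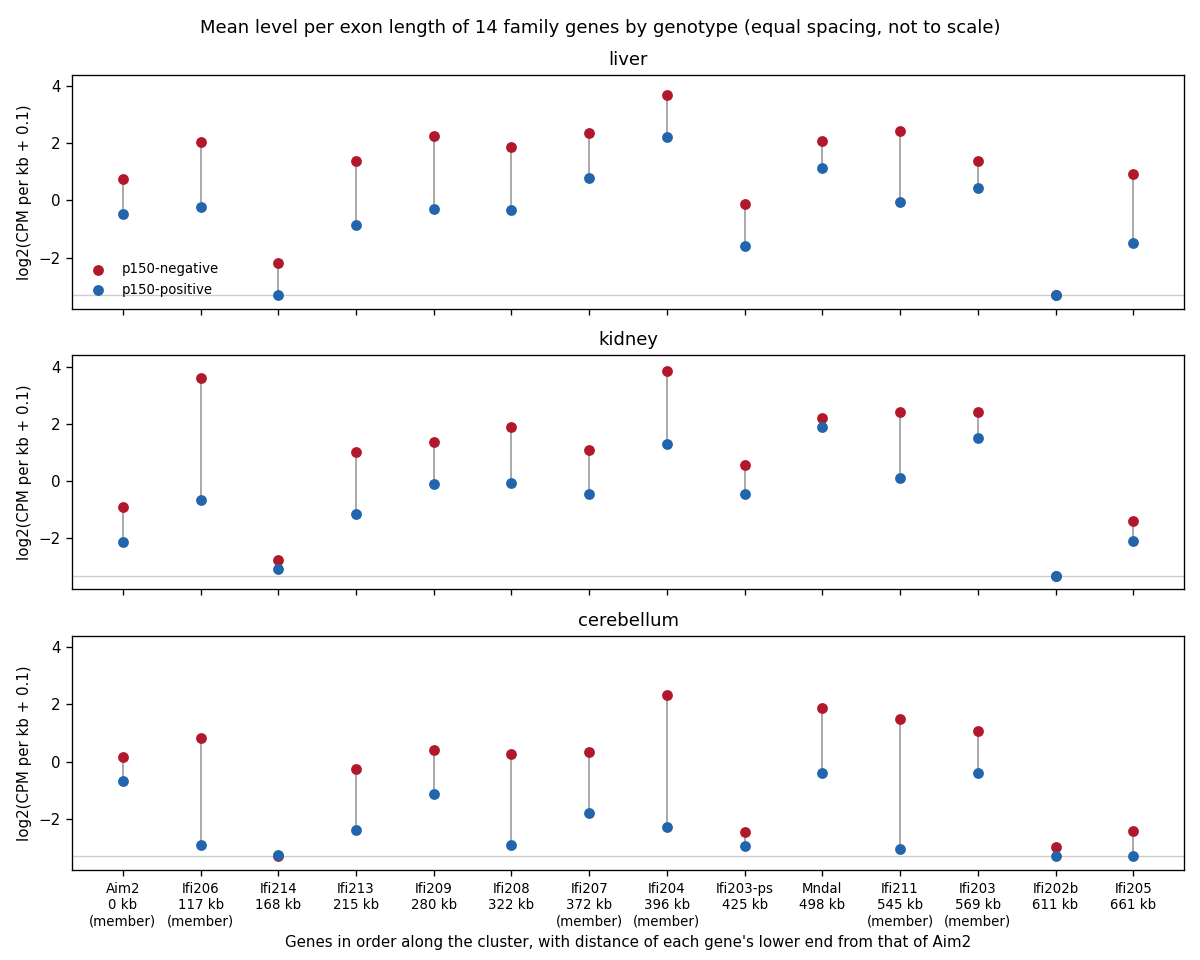
Mean level per exon length of 14 family genes, as log2(CPM per kb + 0.1) on the vertical axis, in the order of the cluster on the horizontal axis; each point is a genotype mean, and a line joins the genotypes of a gene. Ifi204 is the highest p150-negative gene in each tissue, and Ifi202b is at or near 0 throughout.

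Around the family, edgeR called fewer genes for DNA sensing than interferon targets between genotypes in each tissue. Of all genes tested, 6.94%, 0.385% and 0.723% were called higher in p150-negative liver, kidney and cerebellum. Of 15 tested genes for DNA sensing and its control, 3 rose and 1 fell in p150-negative liver by edgeR. They were Ikbke, a kinase acting on interferon regulatory factors (1.35 ± 0.29; adjusted p = 0.00326), Zbp1, a Z-nucleic-acid sensor (1.57 ± 0.47; adjusted p = 0.0327), Samhd1, a dNTP hydrolase (1.02 ± 0.33; adjusted p = 0.0457), and Rnaseh2c, an RNase H2 subunit, which fell by 1.04 ± 0.30 (adjusted p = 0.0254). With each liver left out in turn, Ikbke stayed called in 14 of 14 fits, Rnaseh2c in 10, Zbp1 in 7 and Samhd1 in 3. In kidney 0 of 15 were called by edgeR, with 2 at an unadjusted p under 0.05 and 1 called by DESeq2. In cerebellum 1 of 15 rose, Zbp1 (4.10 ± 0.92; adjusted p = 0.0331), and this call held in 4 of 15 fits with 1 library left out and not by limma voom (adjusted p = 0.405). Tmem173, the gene of STING, was not called in any tissue: 0.81 ± 0.34 in liver (adjusted p = 0.151) and 1.06 ± 0.55 in kidney (adjusted p = 0.655), and 8.74 ± 6.59 CPM (SD, n = 8) against 3.94 ± 1.75 CPM (n = 7) in cerebellum (edgeR adjusted p = 0.652). The list's medians were 0.10, -0.06 and 0.11, beside -0.04, -0.07 and 0.00 for all genes tested.

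Of 13 tested inflammasome genes, 5 rose in p150-negative liver. The interleukin-1 receptor antagonist Il1rn rose by 4.01 ± 0.64 (edgeR adjusted p = 1.97e-04), the cytokine Il1a by 1.44 ± 0.27 (adjusted p = 8.19e-04), the interleukin-18 inhibitor Il18bp by 1.60 ± 0.37 (adjusted p = 0.0059), Casp1, the caspase that AIM2 inflammasomes activate, by 1.42 ± 0.36 (adjusted p = 0.0125) and Naip2, a sensor of bacterial proteins, by 1.62 ± 0.46 (adjusted p = 0.0247). Of these, Il1rn and Il18bp restrain cytokines of the pathway. The call of Casp1 was lost without animal 8 (adjusted p = 0.0536) and that of Naip2 in 4 of 14 fits with 1 liver left out. In kidney 0 of 10 and in cerebellum 0 of 8 were called by edgeR, with 5 and 2 at an unadjusted p under 0.05, and DESeq2 called 1 and 0. Casp1 stood at 2.28 ± 0.89 in kidney (adjusted p = 0.413) and 1.25 ± 0.54 in cerebellum (adjusted p = 0.452).

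Interferon target genes were called higher in p150-negative animals for 25 of 29 tested in liver, 14 of 26 in kidney and 22 of 26 in cerebellum, with medians of 2.01, 1.90 and 3.35. With 1 kidney left out, 8 to 20 were called there, the 8 without p150-negative animal 8, and the identifier sets as a block gave 7. In cerebellum limma voom called 1 of 26, against 19 to 23 by edgeR with 1 library left out. The cause of this gap was not tested. Among interferon signalling genes, 6 of 16, 2 of 16 and 5 of 17 rose. The kidney count was 5 by DESeq2 or without p150-negative animal 3, and 1 with the identifier block or without p150-negative animal 8 or 16 or p150-positive animal 4 or 10. In cerebellum limma voom called 1 of 17. Irf7, a transcription factor that amplifies interferon production, rose by 2.63 ± 0.31, 2.33 ± 0.34 and 4.46 ± 0.61 (edgeR adjusted p = 7.7e-06, 0.00405 and 4.11e-04). Usp18, which limits interferon receptor signalling, rose by 1.99 ± 0.26, 2.80 ± 0.51 and 5.37 ± 0.64 (adjusted p = 2.39e-05, 0.0136 and 1.84e-04). In cerebellum, limma voom gave adjusted p = 0.353 for Irf7 and 0.364 for Usp18. The kidney call of Usp18 was lost with the identifier block (edgeR adjusted p = 0.109) and in 4 of 12 fits with 1 kidney left out (adjusted p up to 0.0665), without p150-negative animal 8 or 16 or p150-positive animal 4 or 10. As with Ifi204, the log2 fold changes of Irf7 and Usp18 were larger in cerebellum than in liver, side by side and without a test of the difference.

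Because these genes are expressed in leukocytes, marker lists of such cells were measured in the same libraries. In liver, 13 of 15 tested macrophage and monocyte genes and 7 of 7 neutrophil genes were called higher in p150-negative animals, and the summed macrophage markers ran from 1220 to 2600 CPM against 405 to 769 CPM. In kidney, 0 of 12 macrophage genes (edgeR; 5 at an unadjusted p under 0.05; DESeq2 called 1) and 1 of 3 neutrophil genes were called, and the macrophage sums overlapped at 249 to 642 and 135 to 317 CPM. The neutrophil sums in kidney did not overlap, at 108 to 241 and 8.41 to 81.6 CPM. The neutrophil count there became 2 by DESeq2 and limma voom, 5 of 6 without p150-negative animal 3, 3 of 3 without p150-positive animal 5, and 0 with the identifier block or without p150-negative animal 16 or p150-positive animal 4 or 6. In cerebellum, 0 of 10 macrophage genes (edgeR; 8 at an unadjusted p under 0.05; DESeq2 called 2) and 3 of 9 microglia genes were called, with microglia sums of 292 to 767 and 230 to 400 CPM. The 292 CPM were those of animal 2, and without it the p150-negative sums began at 446 CPM, above every p150-positive one, with 3 of 9 called. The Kupffer cell marker Clec4f was at 0 in every cerebellum, and Marco at 0 in every p150-positive one. Other leukocyte lists did not all rise. Mean B cell sums were lower in p150-negative liver, kidney and cerebellum, at 7.01, 5.0 and 2.84 against 10.9, 9.48 and 6.29 CPM, with overlap. T and NK cell sums averaged 29.5, 23.8 and 6.15 against 10.4, 15.1 and 5.48 CPM. Dendritic cell sums averaged 11.3, 36.2 and 130 against 8.86, 24.5 and 132 CPM. The part of these cells in the family's values was not tested, and in bulk tissue more cells of a type and more RNA per cell cannot be told apart.

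Over the 41 libraries, with the mean of each tissue removed, the members' log2 CPM correlated with each other from 0.24 (Aim2 and Ifi203) to 0.85 (Ifi211 and Ifi204). Aim2 was at most 0.57 with any member. Of 8733 genes tested in all tissues, those most like the members' sum were Rtp4 (Pearson r 0.849), Oas1a (0.848), Usp18 (0.835) and Cxcl10 (0.833). The points share genotype, library and depth, so these values describe likeness only.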

How the data were processed

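Messenger RNA was measured in 46 libraries of 16 mice. The authors deposited 1 table of unnormalized read counts, and each of its 46 library columns was matched to a sample. The submitters' processing notes name FastQC 0.11.3, STAR 2.4.2a, SAMtools 1.2, Picard 1.134 and HTSeq 0.4.1 with GRCm38 (mm10). The annotation release and strand setting are not given in the sources used here. Of 53471 entries, 6 repeated with identical counts, leaving 53465; 3433 without a symbol held 0.267% of counts. Totals per group ran from 0.53 to 3.79 M and 1.68 to 4.3 M in p150-negative and p150-positive liver, 0.27 to 3.5 and 1.3 to 4.88 M in kidney, and 0.94 to 5.47 and 2.9 to 6.24 M in cerebellum.

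For each tissue, genotypes were compared by edgeR's quasi-likelihood test (edgeR 4.0.16, R 4.3.3; TMM, filterByExpr with a minimum count of 10 and total of 15). Calls were made at 0.05 after Benjamini-Hochberg adjustment over every gene tested. The members, lists and tests were chosen with earlier results of these data known. All 6 members and all other family genes in the table were named, with up to 4 genes of smallest adjusted p per pathway list and tissue, of which some are left to counts; Tmem173 and Casp1 are also given where they were not among these, chosen after their values were seen. Tissue fits pooled the 3 tissues of p150-positive animals; the same animals gave several tissues, and over 18 same-animal pairs deviations from group means correlated from -0.002 to 0.16. Alternatives were DESeq2 1.42.0, limma 3.58.1 (voom), other scaling, filters and blocks, and leaving out each library. Of the fits, only the edgeR genotype fit in liver was tested on simulated counts, with changed genes drawn from the higher levels. Genes at low levels and the other fits were not tested in this way. The library of 1 animal is the replicate. Exon lengths and coordinates came from GENCODE M21 and start stretches from RefSeq (GRCm38.p6).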

Additional observations from a re-analysis of the deposited data

Results flagged for a closer look

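In 36 groups of members by tissue and genotype, 6 held an animal whose gap to the next, set against the range of its group, passed Dixon's 95% limit; chance gives about 1 in 20 groups. In p150-negative cerebella, Ifi203 stood at 47.4 CPM in animal 8, and the next animal at 16.0 CPM. In p150-positive kidneys, Ifi204 stood at 27.2 CPM in animal 15, and the next at 10.3 CPM. In p150-negative kidneys, Ifi206 stood at 92.9 CPM in animal 3, from 25 counts in the library of 0.27 M, and the next at 33.2 CPM. In p150-positive cerebella, Ifi207 stood at 2.56 CPM in animal 10 (8 counts), Ifi211 at 0.25 CPM in animal 5 (its only count) and Aim2 at 5.74 CPM in animal 15 (17 counts). For Ifi211 the other 6 libraries were at 0, so any single count would pass this limit, and the value lies below what 3 counts give; it does not count as a library that stands apart.

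The library labelled kidney of p150-negative animal 11, left out because its kidney identity genes were at most 0.058% of the median of the label, held Ifi211 at 3.85 CPM and Aim2 at 15.8 CPM, above the p150-positive kidneys used (at most 3.51 and 1.03 CPM). Its liver identity genes stood at 19548 CPM and its kidney identity genes at 6.4 CPM, so kidneys are not its match. Livers are no clear match either, since every liver used held at least 34639 CPM of liver identity genes. Its interferon target sum was 10800 CPM, and the livers used reached 4830 CPM. Which organ's RNA it holds was not settled. The p150-positive livers reached 4.14 CPM for Ifi211 and 4.26 CPM for Aim2. Only its Aim2 was higher, in a comparison of organs that may differ.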

How the results depend on the processing

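The 12 log2 fold changes between genotypes of members tested kept their direction in every alternative in which the gene passed the filter. In cerebellum this was 13 alternatives for Ifi204 and Ifi211, against 22 for Ifi203. In kidney it was 18 for Ifi206 and 17 for Ifi207, against 20 for Ifi203 and Ifi204. Counts of members called were less stable. Depth limits Aim2 most, with 10 to 95 counts per group. In liver, the 4 members called became 0 with all labelled libraries and 1 with a stricter filter (1 tested), and the 4 other family genes called became 0 under that filter. In kidney, the 1 member called became 2 by DESeq2, by limma voom and with no filter, 3 without libraries under 1 M counts, and 0 with all labelled libraries, a stricter filter or the identifier block. Leaving out each kidney gave 1 to 3, with 3 without p150-negative animal 3 and 2 without p150-positive animal 5 or 15. Of other family genes in kidney, DESeq2 called 1 in place of 0.

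In cerebellum, the 2 members called became 1 by DESeq2 and limma voom and 0 with all labelled libraries, a stricter filter or without libraries under 1 M counts. Leaving out each cerebellum gave 0 to 2: 0 without p150-negative animal 1, 3, 8, 9, 11, 14 or 16, when only Ifi203 passed the filter, and 2 without animal 2. The 1 other family gene called there became 0 by limma voom, a stricter filter or the identifier block, 2 with no filter, and 0 to 1 on leaving out each library (0 without p150-negative animal 1, 8 or 14 or p150-positive animal 4, 6, 10, 13 or 15). With no filter, the 2 members called between genotypes in cerebellum became 3 (Ifi206 added), and tissue calls of members became 5 in place of 3 for liver over cerebellum, 4 in place of 2 for kidney over cerebellum and 3 in place of 2 for liver over kidney (Aim2 added). Ifi207 in kidney over cerebellum was called by DESeq2 and without animal 4, 5 or 10 (3 members in place of 2). The animal as a replicate block left the 2, 3 and 2 members called in the tissue contrasts as they were.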
